A study of Homo sapiens with 3 samples.

Results

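The widest YTHDC1-bound regions of A549 chromatin, called wide domains here, were selected on their measured width: all peaks of 800 bases or more in the deposited YTHDC1 peak set, 320 of 6368 peaks. A549 is an established human lung adenocarcinoma line, and the cells were wild type and untreated as far as the labels say. YTHDC1 was immunoprecipitated from crosslinked, sonicated chromatin in 3 replicates of this 1 group, and the authors pooled the replicates before calling peaks, so neither the spread between replicates nor the depth of a sample is known. No control library was named for the peak calling. The peak names hint at a merging step, which could have made peaks wider, and its part in the widths used here was not tested. With 1 pooled peak set, the shares below are descriptions with 95% Wilson intervals over peaks or genes, which cover counting error only, and no test between conditions could be made.

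YTHDC1 is a nuclear reader of N6-methyladenosine (m6A), a mark that is placed on RNA while it is being transcribed. In ChIP-seq, a protein that binds nascent RNA can be crosslinked to the DNA of the gene being copied, and RNA polymerase II keeps transcribing past the 3′ end of a gene before it stops. Most messenger RNAs end in a poly(A) tail, whereas replication-dependent histone messages end at a short hairpin. Most small nuclear RNAs (snRNAs) of the spliceosome are cut from a longer precursor.

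At snRNA and histone genes, wide domains covered short genes in whole or in part and ran on past their ends. Short sequences at the ends of histone genes are given first, because the domains there run across the point where the message is cut. The hairpin of 6 paired bases around a loop of 4 is shown for 5 histone genes under wide domains, as transcribed from GRCh37 and with its stem in capitals.

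H1-2, chr6:26055967-26055992 (−): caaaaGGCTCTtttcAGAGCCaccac

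H1-3, chr6:26234440-26234465 (−): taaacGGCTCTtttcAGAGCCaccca

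H1-4, chr6:26157318-26157343 (+): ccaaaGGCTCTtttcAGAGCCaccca

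H4C3, chr6:26104540-26104565 (+): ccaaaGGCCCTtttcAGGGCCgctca

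H2AC6, chr6:26124892-26124917 (+): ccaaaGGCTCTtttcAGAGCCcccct

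A hairpin of this form, with a stem opening in GG and a loop opening in TT, was found between 80 bases before and 20 bases past the end in 58 of 64 replication-dependent histone genes (90.6%) and in 64 of 20098 protein-coding genes (0.318%), the histone genes included. It was found in 19 of the 21 such histone genes whose end a wide domain covered or followed. The poly(A) signal AATAAA stood in the last 40 bases of 1 of those 21 genes. Among the 99 other protein-coding genes whose end a wide domain covered or followed, 60 had AATAAA there (60.6%, 50.8 to 69.7), beside 61.7% of all protein-coding genes, and 1 had the hairpin. Wide domains thus lay over and past gene ends of both kinds.

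The wide domains were 962 bases wide in the median (quartiles 869 and 1188), and the longest spanned 3085. They were 5.03% of the peaks and held 13.4% of the peak bases, or 350 kb. Of the 320, 137 reached 1000 bases, 32 reached 1500 and 12 reached 2000. Just inside the width limit were a peak of 800 bases in AOPEP, an aminopeptidase gene, and peaks of 801 bases at TFAM, which encodes a factor for mitochondrial DNA, and SSTR2, a somatostatin receptor gene. Just outside, 1 base short of the limit, were peaks in the pseudogene CROCCP2 and at SENP6, a SUMO protease gene, followed by a peak of 798 bases at an unnamed gene. Within 20 bases there were 33 peaks from the limit up and 27 below it, so the limit falls in no gap.

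The value the authors' peak caller wrote for each peak, read here as −log10 of its q-value and called the peak score, had a median of 2.26 in wide domains (quartiles 1.56 and 3.40) and 1.30 in peaks under 800 bases. A q-value under 0.05 was held by 280 wide domains (87.5%) and by 50.2% of narrower peaks. Width and score come from the same calling step, so this difference is given as part of the selection.

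Wide domains differed from narrower peaks chiefly at the far end of genes. A wide domain covered a gene end, of any gene type, in 67 cases (20.9%, 16.8 to 25.7), against 171 of 6048 narrower peaks (2.83%, 2.44 to 3.28). A domain has more bases with which to touch an end, so midpoints were compared too. The midpoint lay 1 to 3000 bases past a protein-coding end in 82 wide domains (25.6%, 21.2 to 30.7) and in 10.4% of narrower peaks (9.66 to 11.2). The share was 8.75% in peaks under 400 bases and 13.5% in peaks of 400 to under 800. The 3000-base span was chosen after the positions of these domains had been seen.

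**Figure D1:**
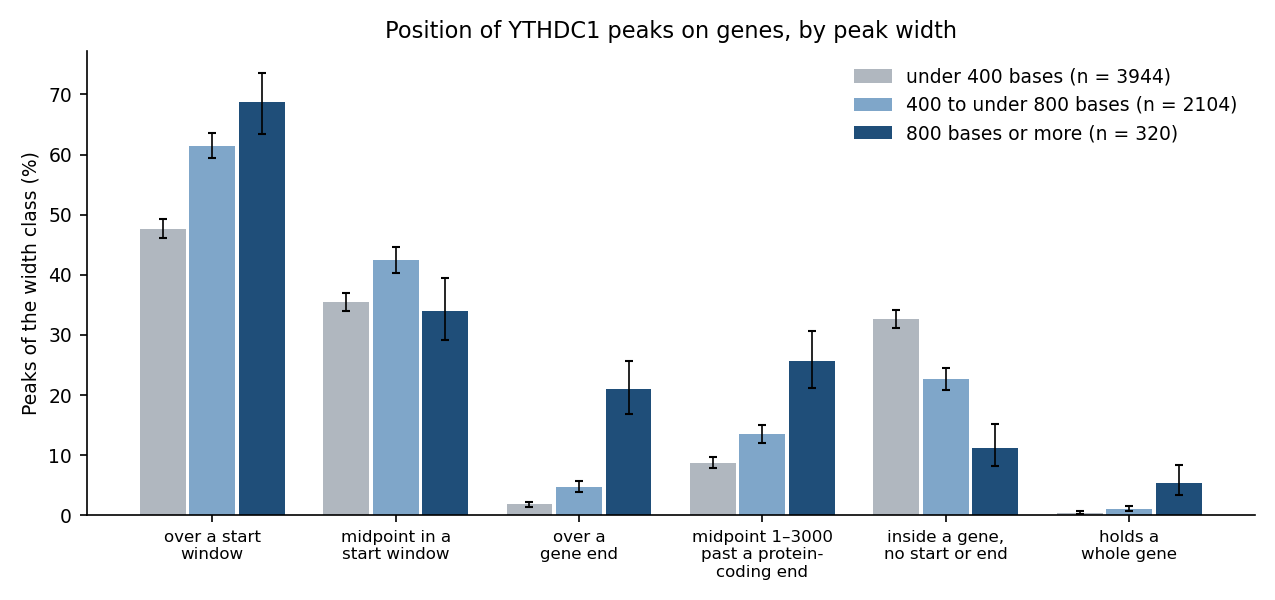
Percent of peaks (vertical axis) in each of 6 position groups for peaks under 400 bases, of 400 to under 800 bases and of 800 bases or more. Bars start at 0 and black lines are 95% Wilson intervals over peaks. Gene ends were covered by 1.83%, 4.71% and 20.9% of the classes, and the share inside a gene away from its start and end was 32.6%, 22.6% and 11.3%.

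Gene starts gave a different picture. A start window, which runs from 200 bases before a transcript start in the annotation to 200 after it, was touched by 220 wide domains (68.8%, 63.5 to 73.6) and by 52.5% of narrower peaks. By midpoint the order did not hold: 109 wide domains (34.1%, 29.1 to 39.4) had their midpoint in a start window, beside 37.9% of narrower peaks, a difference of -3.87 percentage points with an interval of -8.99 to 1.62. The interval includes 0. This difference turned positive, 3.72 points, when the limit was 600 bases, and was -11.0 points at 1000 and -21.1 points at 1200. Start windows of 2 or more genes were touched by 65 wide domains (20.3%, 16.3 to 25.1) and 12.7% of narrower peaks.

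Among the 100 wide domains that touched no start window, 30 (30.0%, 21.9 to 39.6) had their midpoint 1 to 3000 bases past a protein-coding end, beside 9.95% (8.91 to 11.1) of the 2874 such narrower peaks. Most of these lay close to the end: 23 were within 1000 bases, 6 between 1001 and 2000, and 1 between 2001 and 3000. Among narrower peaks the same 3 spans held 4.11%, 3.20% and 2.64%. With the replication-dependent histone ends left out, 25 of the 100 wide domains (25.0%) remained past an end. Out of all 320 wide domains, with histone ends kept, 9.38% (6.65 to 13.1) lay past an end and touched no start window. The same held for 4.73% (4.22 to 5.29) of narrower peaks. The other wide domains with a midpoint past an end also touched a start window.

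**Figure D2:**
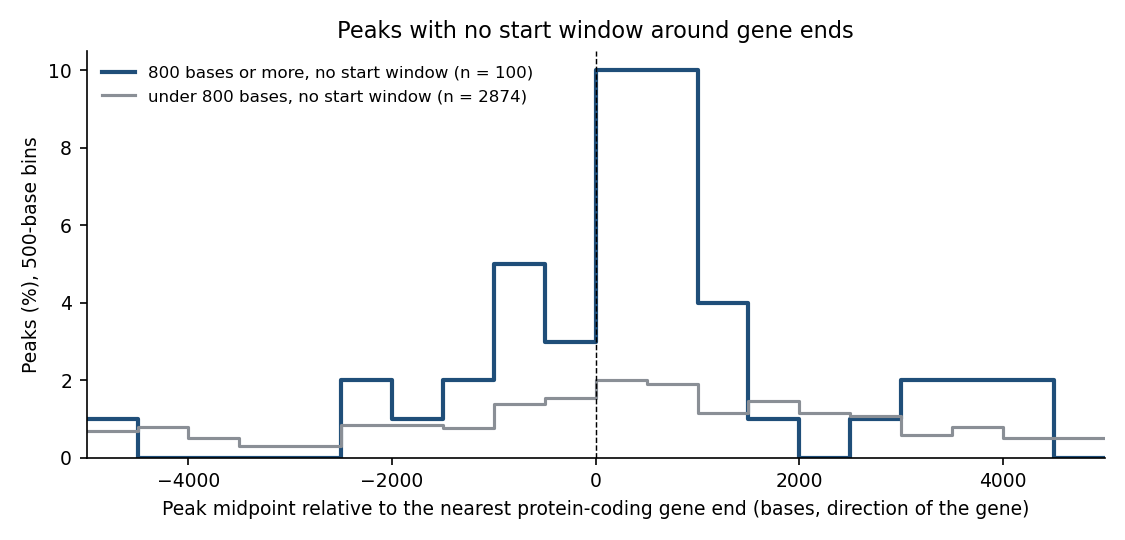
Percent of peaks with no start window (vertical axis) by the distance of their midpoint from the nearest protein-coding gene end (horizontal axis, bases, 500-base bins, positive past the end). The wide domains (dark line, n = 100) reach 10.0% in each of the first 2 bins past the end, where the narrower peaks (grey line, n = 2874) hold 2.02% and 1.91%.

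Wide domains rarely took in a whole protein-coding gene. A whole gene of any type lay inside 17 of them (5.31%, 3.34 to 8.34), against 0.645% of narrower peaks, and a whole protein-coding gene inside 2 (0.625%, 0.172 to 2.25). These 2 genes were C6orf226, whose domain of 1305 bases (chr6:42857956-42859260, score 4.85) also lay past the end of RPL7L1, a ribosomal protein-like gene, and the histone gene H4C3. By the canonical transcript alone, H4C16 and H4C8, which also encode histone H4, were taken in as well. The other whole genes were short RNA genes and unnamed transcripts: 6 snRNAs, the small nucleolar RNAs (snoRNAs) SNORD104 and U3, the microRNAs MIR3193, MIRLET7I and MIR3191, the 5S pseudogene RNA5SP18 and 4 unnamed genes.

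Over all protein-coding genes, 282 of 20163 had a wide domain over any base (1.4%) and 196 over a start window (0.972%). In 71 a wide domain began past the end, within 3000 bases of it (0.352%). Covered genes were more frequent among the shortest. Of protein-coding genes under 1 kb, 24 of 559 (4.29%, 2.90 to 6.31) had a wide domain, against 27 of 3115 genes over 100 kb (0.867%, 0.596 to 1.26). Narrower peaks ran the other way, with 6.08% and 28.3%. The excess among the shortest genes was held by histone genes: without the replication-dependent ones, 4 of 496 genes under 1 kb (0.806%) had a wide domain.

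Replication-dependent histone genes, which supply the core and linker histones in S phase, were the list most often covered. A wide domain lay over 20 of 64 of them (31.3%, 21.2 to 43.4), beside the 1.4% of all protein-coding genes, and 19 had their end covered. The one gene without a covered end, H2BC4, was counted through the long extent of its annotated transcripts. By canonical transcript, 19 genes had a wide domain, 18 others had a narrower peak, and 27 had none. Chromosome 6, which carries the main clusters, had 26 wide domains among 218 peaks (11.9%, 8.27 to 16.9), the highest share of any autosome. In its main histone cluster (chr6:26000000-26300000) 13 of 19 peaks were wide, and in the second (chr6:27000000-27900000) 6 of 35.

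The linker histone genes H1-2, H1-3 and H1-4 had some of the highest scores of wide domains at protein-coding genes. The H1-3 domain (chr6:26233404-26235167, 1764 bases, score 13.4) began 48 bases after the start and reached 1036 bases past the end. The H1-4 domain (chr6:26156645-26158109, 1465 bases, score 13.7) ran from 88 bases after the start to 766 past the end. The H1-2 domain (chr6:26055272-26056669, 1398 bases, score 13.0) ran from 29 after the start to 696 past the end. All 3 therefore held the hairpin given for these genes and covered at least 88.8% of the gene.

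Domains at core histone genes also crossed the end, but they began from 21 bases before the start to 449 after it. The H4C3 domain (chr6:26104154-26105164, 1011 bases, score 14.8) began 7 bases before the start and stopped 599 bases past the end. The widest, at H2AC6 (chr6:26124540-26126360, 1821 bases, score 3.04), began 140 bases after the start and reached 1442 past the end. At H2AC11 (chr6:27101116-27102196, 1081 bases, score 14.2) 40.4% of the gene was covered, and at H2AC13 9.29%, with the rest of both domains past the end. H4C16, on chromosome 12 away from the clusters, had a domain from 16 bases before its start to 979 past its end.

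All 19 histone domains crossed the gene end, by 455 to 1442 bases (median 766). Of the 19, 16 began at or after the start (median 88 bases after it) and 3 began upstream, by at most 21 bases. The 18 narrower peaks at other histone genes also all crossed the end, by a median of 466 bases, and began a median of 323 bases after the start. These are other histone genes, set apart by the width of their peaks, so the greater length of the wide domains is fixed by their selection. Histone genes are near-identical copies, and reads shared between them were not traced here. HIST1H4B, an older symbol for a histone H4 gene that the list did not contain, had a domain of 830 bases (score 10.5) from 72 bases after its start to 545 past its end.

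Of the 11 replication-independent histone genes, 2 were covered: H2AX, whose product marks DNA breaks when phosphorylated, and H1-10, a linker histone gene. The H2AX domain (1047 bases, score 2.65) ran from 798 bases after the start to 253 past the end, and the H1-10 domain (1200 bases, score 1.72) from 869 after the start to 553 past the end.

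Of the 9 snRNA genes under a wide domain, 6 were covered whole and 3, RNU5D-1, RNU4-2 and RNU5E-4P, at the end alone. U5 is the snRNA that holds the exons together in the spliceosome. A wide domain lay over 9 of 1914 snRNA genes in the annotation (0.47%), a type made up largely of pseudogene copies. The list of 1917 genes that also takes in 7SK held the same 9. Among them, 7 were U5 genes or copies (RNU5A-1, RNU5B-1, RNU5D-1, RNU5E-1, RNU5F-1, RNU5A-8P and RNU5E-4P), and the others were RNU4-2, a U4 gene, and RNU2-63P, a U2 copy. The RNU5B-1 domain (1044 bases, score 6.68) began 17 bases before the gene and ended 911 past it. The RNU5A-1 domain (819 bases, score 7.01) ran from 84 before to 619 past, and RNU5F-1 (963 bases, score 2.996) from 62 before to 784 past.

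RNU5E-1 had the widest snRNA domain (1774 bases, score 4.16), from 49 bases before the gene to 1605 past it, where it also reached the copy RNU5E-4P. For the pseudogene RNU5A-8P the domain (1257 bases, score 4.55) began 18 bases before it and ended 1125 past it. The 6 whole snRNA genes had 17 to 272 bases of domain upstream (median 55.5) and 518 to 1605 downstream (median 847.5). Only RNU2-63P had over 100 bases upstream. RNU5D-1 and RNU4-2 were covered at their ends, with domains reaching 995 and 1154 bases past them. U5 genes are copies of each other, and how the authors' alignment placed shared reads is not given in the sources used here.

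**Figure D3:**
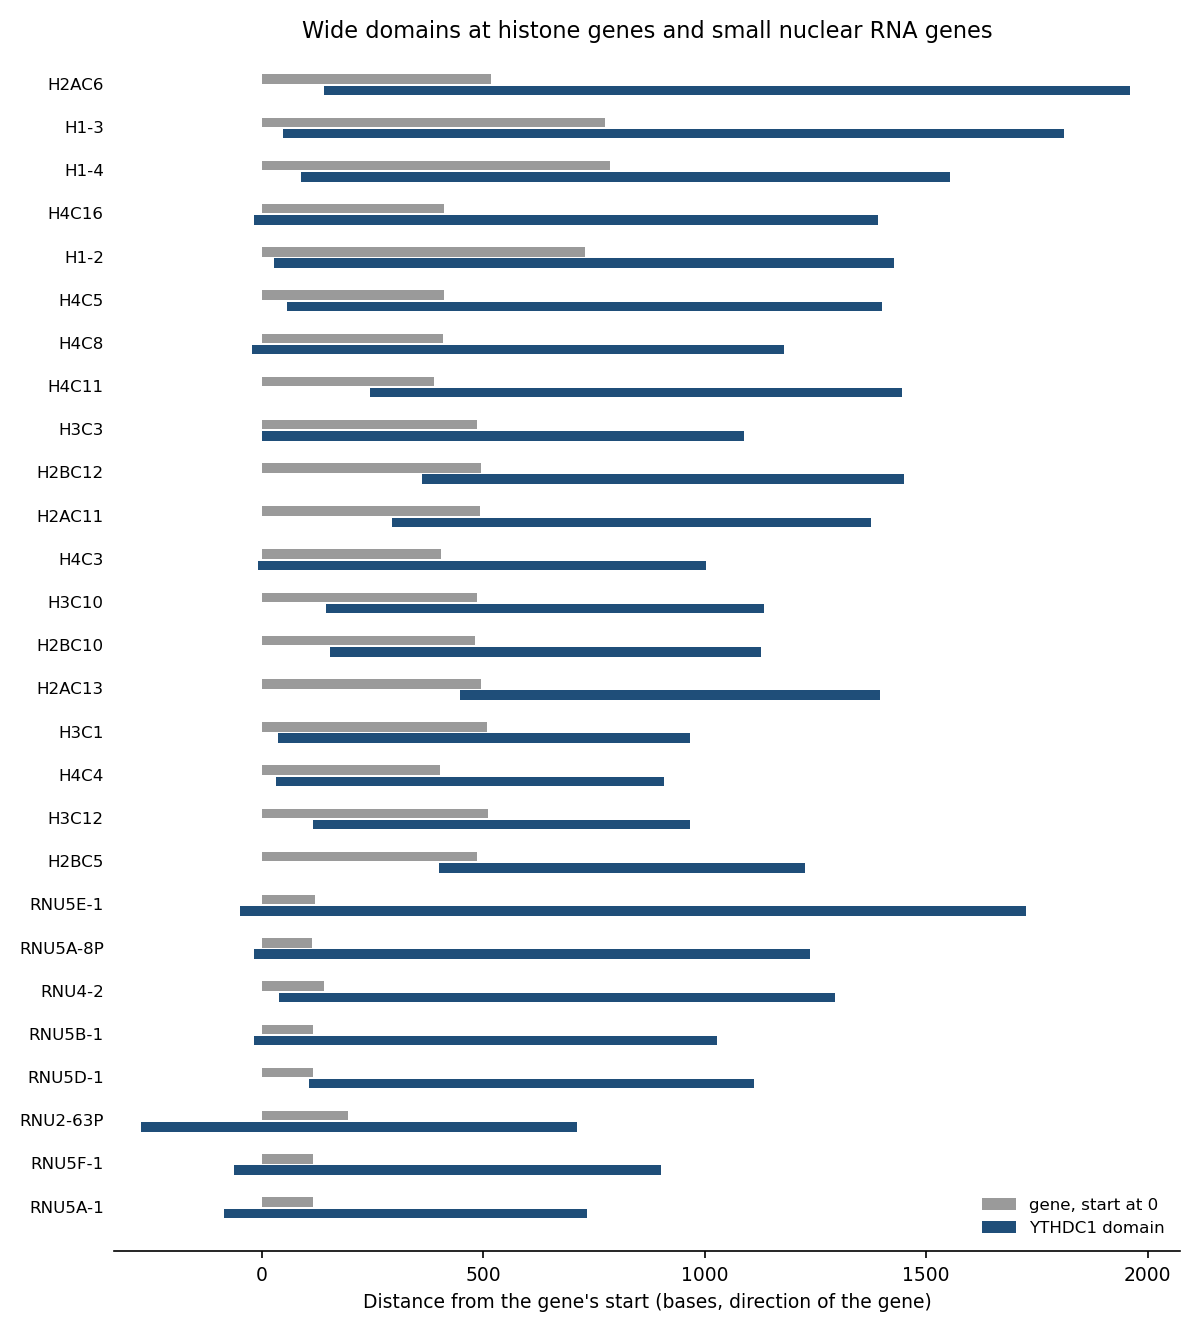
Wide domains (dark bars) drawn to scale under their genes (grey bars, canonical transcript or, where none is marked, the gene) at 19 replication-dependent histone genes and 8 snRNA genes, by distance from the gene's start in bases. Domains begin near or after the start and all run past the gene end, by 455 to 1442 bases at the histone genes.

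The other small RNA genes were seldom covered. A wide domain lay over 2 of 1458 snoRNA genes (0.137%): SNORD104, inside its host gene SNHG25, and U3, which acts in ribosomal RNA processing and had a domain from 38 bases before to 631 past the gene. Among microRNA genes 4 of 3049 were covered (0.131%): MIR3193, past the end of ID1; MIRLET7I, a let-7 microRNA gene; MIR3191, inside BBC3; and MIR4647. The widest domain of the set (chr17:57915525-57918609, 3085 bases, score 2.94) lay in the last part of VMP1, an autophagy gene, and reached the start window of MIR21, a microRNA gene, without covering it.

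Long non-coding RNA (lncRNA) genes had a wide domain in 91 of 18702 cases (0.487%). MALAT1, an abundant RNA of nuclear speckles, was the 1 covered gene of 15 nuclear lncRNA genes. It had 2 domains, 1844 bases (chr11:65266721-65268564, score 3.45) at 1610 to 3453 bases from its canonical start and 930 bases (score 1.43) at 8846 to 9775. Both also overlapped the antisense gene TALAM1, and ChIP-seq cannot tell the strands apart. NEAT1, the RNA that builds paraspeckles, had no wide domain.

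Outside the histone and snRNA genes, several of the widest domains lay over the ends of short protein-coding genes, while those in VMP1, CYP24A1 and ALDH1A1 lay inside longer genes and a domain on chromosome 6 beside a long assembly gap lay outside genes. The ID3 domain (chr1:23882653-23885617, 2965 bases, score 2.94) covered 76.2% of the gene, which encodes an inhibitor of helix-loop-helix transcription factors, and reached 1764 bases past its end. Its relative ID1 (chr20:30193515-30195987, 2473 bases, score 8.61) was covered over 65.4% and for 1674 bases past the end. At IER5L, a gene of 1 exon, the domain (2768 bases, score 5.29) reached 987 bases past the end, and at TCIM, also of 1 exon, 95.5% of the gene was covered (2538 bases, score 2.91).

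JUNB, a subunit of the AP-1 factor, had a domain of 1833 bases (score 1.93) from 745 bases after its start to 748 past its end. DDIT4, a stress-induced inhibitor of mTORC1 signalling, had one of 2187 bases (score 2.43) that reached 1179 past its end. FOSL1, another AP-1 subunit, was touched over the last 40 bases by a domain of 1290 bases that covered 86.9% of its neighbour CCDC85B. Of 28 immediate early genes, which respond to stimuli without new protein synthesis, 4 had a wide domain (14.3%, 5.70 to 31.5): ID1, ID3, JUNB and FOSL1. All 4 had their end covered.

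The 47 protein-coding genes with a covered end but not a wholly covered transcript had a median length of 1592 bases, and 22 had 1 exon. The 98 with a covered start and no covered end had a median length of 18000.5 bases, and 2 had 1 exon. A domain over the start of a short gene can also reach its end, so this difference in length is fixed in part by the grouping. Listed histone genes weigh on the first group. When wholly covered genes are included, 19 genes with a covered end were listed histone genes, 15 were others of 3000 bases or less and 17 were longer. Past the end, the first group's domains reached a median of 749 bases (175 to 1918). With wholly covered genes counted too, the median reach was 748 bases (47 to 1918) in the 15 genes of 3000 bases or less other than histone genes and 749 (312 to 1648) in the 17 longer ones. Of all peaks over a protein-coding end, the midpoint was past it in 32 of 49 wide domains (65.3%, 51.3 to 77.1) and 37 of 65 narrower peaks (56.9%, 44.8 to 68.2), and these intervals overlap.

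Both ferritin genes, whose products store iron, were also covered at their ends. The domain at FTL, the ferritin light chain gene (chr19:49470050-49472054, 2005 bases, score 9.97), took in the last 87 bases of the gene and 1918 bases past it, where it also reached the end of GYS1, a glycogen synthase gene on the other strand. FTH1, the ferritin heavy chain gene, had a domain of 1805 bases (score 2.72) over its last 157 bases and 1648 past the end. With UGDH, AKR1B10 and AKR1C1, which encode a UDP-glucose dehydrogenase and a pair of aldo-keto reductases and had no covered end, 5 of 21 NRF2 target genes had a wide domain (23.8%, 10.6 to 45.1). At UGDH (1620 bases, score 1.48) and AKR1B10 (1312 bases, score 2.53) the domain began 41 and 71 bases after the start.

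Several domains lay just past the end of a gene and covered none of it. At TMSB4X, a thymosin gene whose product binds actin, a domain of 1388 bases (score 1.30) began 96 bases past the end. Its relative TMSB10 was instead covered over 86.4% of the gene and 439 bases past it (1317 bases, score 2.38).

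MAT2A, whose product makes the methyl donor used for m6A, was the 1 of 22 m6A genes covered and had 2 wide domains. The first (1124 bases, score 2.25) ran from 91 to 1214 bases after the start. The second (chr2:85772446-85774263, 1818 bases, score 2.47) began 42 bases past the end, inside the neighbouring gene GGCX, whose product carboxylates vitamin K-dependent proteins. EEF1A1, a translation elongation factor gene, was likewise marked at its start, from 64 bases before to 901 after it (966 bases, score 2.34), and from 803 to 1885 bases past its end (1083 bases, score 2.36).

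Genes for cytoplasmic ribosomal proteins had this layout more often than a covered body. Of 88, 3 were covered (3.41%, 1.17 to 9.55), RPL27A, RPL13A and RPL4. In 8 a wide domain began past the end, within 3000 bases of it, beside 0.352% of all protein-coding genes. The RPL13 domain (1443 bases, score 1.69) began 107 bases past the end, the RPS2 domain (1287 bases, score 2.61) 94 and the RPL23A domain (1448 bases, score 1.16) 267. The RPL23A domain also began 160 bases after the start of TLCD1, so its position can be counted from either gene. The 8 also include the ribosomal protein-like gene RPL7L1, which the list took in by its symbol and whose domain holds all of C6orf226. Among mitochondrial ribosomal protein genes 1 of 78 was covered, MRPL53 (977 bases, score 12.2), from 285 bases before its start to 7 before its end.

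**Figure D4:**
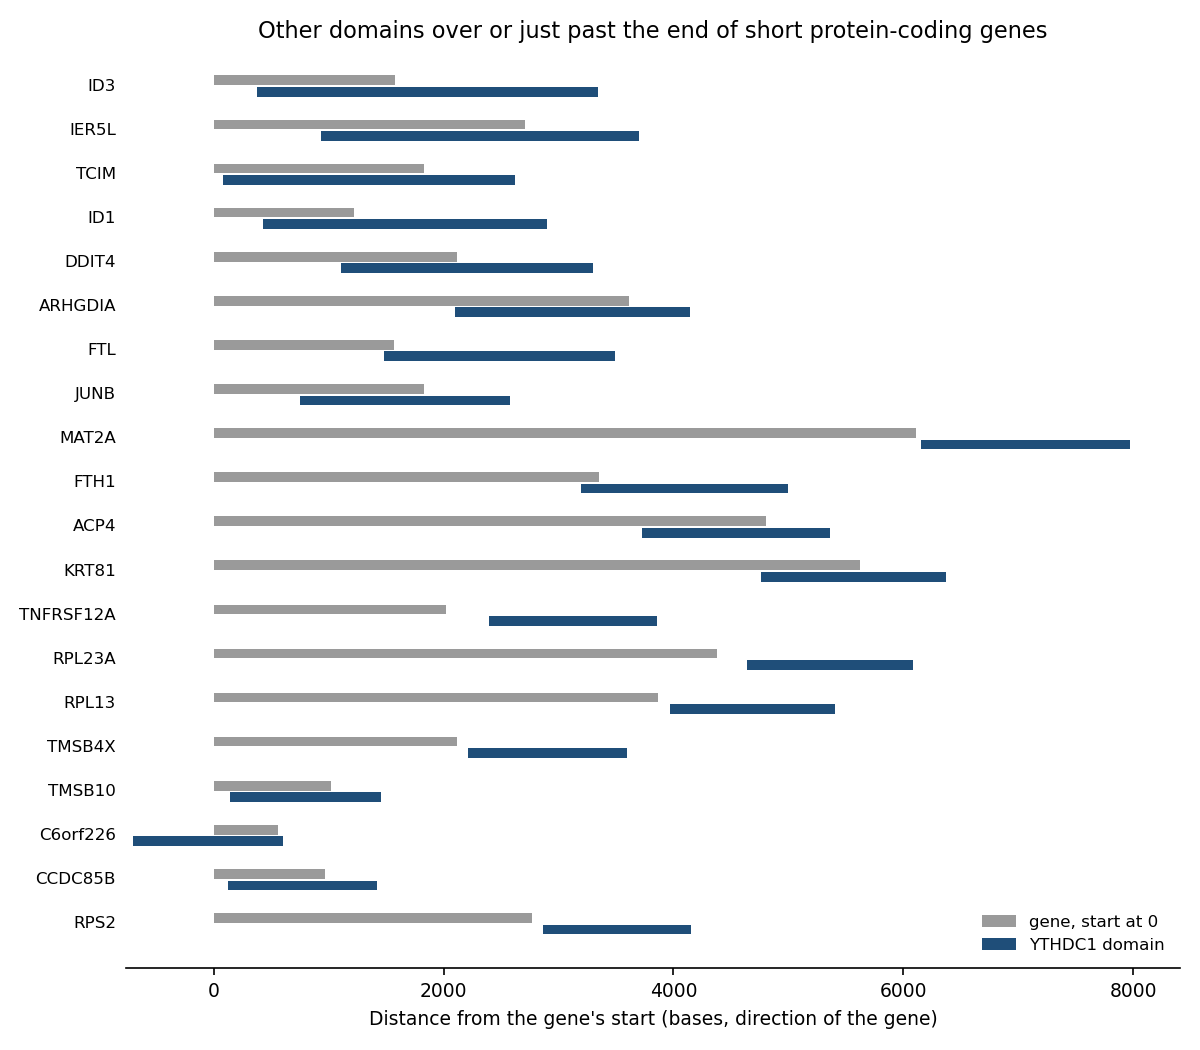
A set of 20 of the widest domains (dark bars) over the end, or beginning up to 500 bases past it, of protein-coding genes of at most 7000 bases other than the listed histone genes, drawn to scale under the gene (grey bars, start at 0, bases in the direction of the gene). The MAT2A, TMSB4X and RPL13 domains begin past the gene, and the ID3, TCIM and JUNB domains begin inside it.

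Many wide domains began just after a start. Of the 320, 37 (11.6%, 8.51 to 15.5) began 1 to 200 bases after a canonical protein-coding start and 8 (2.50%, 1.27 to 4.85) stopped 1 to 200 bases before one. In narrower peaks the same counts gave 13.6% (12.8 to 14.5) and 5.34% (4.80 to 5.94), so the excess after the start was present at both widths. This measure was chosen after the domains had been seen. The 37 had a median width of 1089 bases, and 11 were at listed histone genes.

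Among the other 26 were several at enzyme genes. At ALDH1A1, a retinaldehyde dehydrogenase gene, the domain (chr9:75565867-75567888, 2022 bases, score 2.51) ran from 81 to 2102 bases after the start. At CYP24A1, which breaks down active vitamin D, it ran from 118 to 2403 (2286 bases, score 3.14). The ALDH3A1 domain (1420 bases, score 8.19) ran from 116 to 1535. Glycolytic genes had wide domains in 2 of 17 cases (11.8%, 3.29 to 34.3): PKM, the pyruvate kinase gene, from 58 to 1395 bases (1338 bases, score 2.35), and GAPDH from 128 to 1074 (947 bases, score 2.16). TUBA1C, an alpha-tubulin gene, had one from 93 to 998 (906 bases, score 1.90).

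Where a wide domain covered a start, its reach to each side was measured from the covered start nearest its midpoint. For the 143 wide domains over any annotated protein-coding start, the median reach was 480 bases upstream and 496 downstream. Where several starts were covered, this choice draws the sides together, so the near-equal medians are set in part by the measure. With canonical starts alone, 94 domains reached 398.5 bases upstream and 604.5 downstream. The downstream side was the longer one in 56 of these 94 (59.6%, 49.5 to 68.9) and in 58.4% of narrower peaks, so the balance was close at both widths. The wide domain passed the end of exon 1 in 74 of 88 genes with more than 1 exon (84.1%, 75.05 to 90.3), against 56.6% of narrower peaks, which follows in part from the width that chose them.

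The remaining lists had few covered genes. Of 20 translation factor genes 2 were covered (10.0%, 2.79 to 30.1), EEF1A1 and EIF4A1, which encodes an RNA helicase of translation initiation. The actin and tubulin list of 13 genes also takes in thymosin and other actin-binding protein genes. Of the 13, 2 were covered (15.4%, 4.33 to 42.2), the thymosin gene TMSB10 and the tubulin gene TUBA1C. Zinc finger genes had a wide domain in 15 of 508 cases (2.95%, 1.80 to 4.81), led by ZNF546, ZNF446, ZNF606 and ZNF343, which encode DNA-binding proteins, with domains of 1090 to 1220 bases. Of 1031 intronless protein-coding genes 23 were covered (2.23%, 1.49 to 3.33), 21 of them at the end. Most of the 23 were histone genes, so this share is not one of intronless genes in general. The others were IER5L, TCIM, JUNB, C6orf226, CCDC85B, ZCCHC3 and EXOSC6.

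Among p53 targets and DNA damage response genes the shares did not stand apart from the 1.4% of all protein-coding genes, which lies within both intervals. BBC3, which encodes a pro-apoptotic protein, was the 1 gene covered among 21 p53 target genes (4.76%, 0.846 to 22.7), with a domain of 1587 bases (score 2.32). H2AX was the 1 among 25 DNA damage response genes (4.00%, 0.710 to 19.5). POLB and NEIL1, which encode enzymes of base excision repair and are in neither list, had wide domains at their starts (1027 and 1024 bases). They were named after their values were seen, and no list of base excision repair genes was counted. Of all protein-coding genes, 0.972% had a wide domain over a start window, so these genes give no share for repair genes. CDKN1A, MDM2, ATR and BIRC6 had none, nor did HEXIM1, an inhibitor of the elongation factor P-TEFb. None of the 28 RNA polymerase II pausing genes, 23 splicing factor genes of the SR and hnRNP families or 14 heat shock protein genes had one, which with so few genes allows shares of up to 12.1%, 14.3% and 21.5% by the upper Wilson bound.

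**Figure D5:**
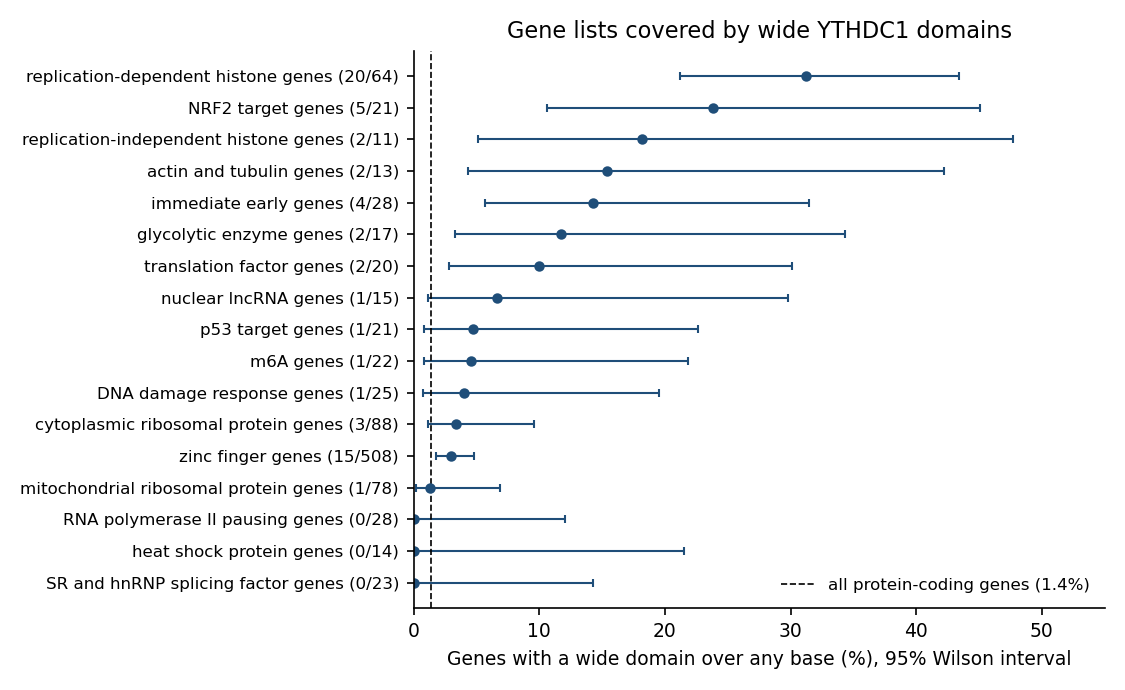
Percent of the genes of 17 lists with a wide domain over any base (horizontal axis), with 95% Wilson intervals over genes and the counts in the labels. The dashed line is the 1.4% of all protein-coding genes, and replication-dependent histone genes (31.3%) stand highest.

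The genes with the most wide domains were AOPEP with 3 and CXCL1, EEF1A1, FADS1, FADS2, MALAT1 and TALAM1 with 2 each. CXCL1 encodes a neutrophil chemokine, and its domains lay inside the gene (969 bases, score 1.76) and over its end (937 bases, score 1.53). FADS1 and FADS2, neighbouring fatty acid desaturase genes, shared a domain of 982 bases (score 1.16) that touched the start windows of both. The domain of 818 bases at FADS1 had a score of 1.13. Another wide domain lay within 100 kb of 84 of the 320 (26.25%) and within 10 kb of 24.

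The 4 highest scores among wide domains lay outside genes and beside long assembly gaps. Of 18 wide domains with a score over 10, 7 lay within 100 kb of a run of at least 10000 unknown bases in the assembly, as centromeres have, and 5 held a listed histone gene. The highest was 161 (chr1:121484241-121485481, 1241 bases), followed by 148 (chr7:61968694-61969732, 1039 bases), 78.0 (chr6:58776777-58779469, 2693 bases) and 48.6 (chr19:27731953-27733360, 1408 bases). These 4, and a domain on chromosome 10 with a score of 35.7, matched themselves best at a shift of 340 bases among shifts of 100 to 400, with 52.7 to 78.2% of bases equal. Centromeric alpha satellite DNA consists of such tandem copies. Stretches of 31 bases found more than once in the assembly made up 29.9%, 68.8%, 32.9% and 30.1% of the 4 highest, in that order. Such stretches made up over 50% of the sequence in 2 of the 320 wide domains (0.625%) and in 1.11% of narrower peaks.

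Of the rest of the 10 highest, a pair lay on chromosome 17 (chr17:41399771-41401213, score 40.8, and chr17:41381603-41382486, score 30.4, at the start of LINC00854) and a pair on chromosome 16 near the centromere (scores 34.6 and 14.4), and H4C3 was the 1 on a protein-coding gene. Within 100 kb of a long gap lay 15 wide domains (4.69%, 2.86 to 7.59) and 2.28% of narrower peaks. With no control library named, the part of read stacking in these scores was not tested. Without these 15 the share of wide domains over a gene end was 21.6%.

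Outside every gene and start window lay 50 wide domains (15.6%, 12.1 to 20.0) and 17.4% of narrower peaks. Of the 50, 11 had their midpoint past a protein-coding end, 13 were near a long gap and 26 were neither. By bases, 41.9% of wide domain sequence was exon and 28.9% intron, against 36.1% and 39.5% in narrower peaks. A further 10.4% lay outside genes within 3000 bases past a protein-coding end, against 4.24%.

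GC content was compared with that of narrower peaks in windows of 1 length. A central window as long as the narrowest peak held 57.6% ± 12.9 GC in wide domains (SD over 320 peaks) and 59.4% ± 12.9 in narrower ones (SD, 6048 peaks), a difference of -1.80 percentage points with an interval of -3.25 to -0.358. Both the sign and the size of this difference depended on the limits: it was 1.35 points at a width limit of 600 bases, -3.86 at 1000 and -7.44 at 1200, and -3.45 among peaks with a q-value under 0.05. With the midpoint in a start window the means were 65.5% and 66.6%, and with no start window 50.5% and 52.3%. GGACT, the core letters of a common m6A context, was found on either strand of this window in 39.7% of wide domains (34.5 to 45.1), 34.6% of narrower peaks (33.4 to 35.8) and 34.9% of all. The intervals overlap. TATAAA, found at some promoters, was present in 7.81%, 6.32% and 6.39%, and CCAAT, another promoter element, in 20.0%, 17.5% and 17.7%.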

How the data were processed

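YTHDC1 ChIP-seq was performed on 3 replicates of A549 cells. According to the study's methods, reads were aligned to hg19, pooled over replicates and used by the authors for broad peak calling with MACS2 (q-value 0.1, broad cutoff 0.25), and the deposited file holds 1 value for each peak, taken here as −log10 of the q-value since its lowest value, 0.610, lies just above −log10 of that cutoff (0.602). The aligner was not settled: the methods name Bowtie2, and the submitters' processing notes name BWA. How peaks were merged, as their names hint, is not given in the sources used here, and merging could have produced some of the widths that select the domains.

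All 6368 peaks were read, and positions count from 1. Genes, starts and ends were taken from GENCODE 44 mapped to GRCh37 (64449 genes), the build of the files, and sequences from the GRCh37 assembly. A gene's start and end are those of its canonical transcript, or of the whole gene where none is marked (282 protein-coding genes). A gene is whole in a peak if its full annotated extent lies inside. Gaps are runs of at least 10000 N, and repeated sequence means 31-mers found more than once in the assembly. Intervals are 95% Wilson intervals, Newcombe intervals for differences in shares and 1.96 standard errors over peaks for the difference in GC. The annotation step was tested on simulated data.

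Named genes are those at the 15 widest and 10 highest-scoring wide domains, those wholly covered, up to 4 members for each of 21 gene lists, those nearest the limit, those with most wide domains and 9 genes taken whatever their values. The members and lists were chosen with earlier results of these data known. Other genes, among them those of the start and past-end groups, were named after their values were seen. The tools were scipy 1.17.1, pandas 2.3.3, numpy 2.4.6 and numba 0.67.0 under Python 3.11.15, with plots from matplotlib 3.10.9. A few withheld items are not reported here.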

Additional observations from a re-analysis of the deposited data

How the results depend on the processing

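The 13 summary values were recomputed with 1 choice changed at a time, in 107 recomputations, of which 69 stayed within the interval of the reported value, or for counts within 1.5 times it. Shares past a protein-coding end among domains with no start window (30.0%) did so in all 8 of their alternatives, from 23% within 1000 bases to 37.0% at a limit of 1200 bases. These alternatives were chosen after seeing the data.

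The width limit moved most. At 600, 1000 and 1200 bases, the midpoint lay in a start window in 41.0%, 27.0% and 16.9% (difference from narrower peaks 3.72, which reverses the sign, -11.0 and -21.1 points). A gene end was covered in 14.0%, 31.4% and 41.6%, the share inside a gene was 15.9%, 7.30% and 6.49%, the GC difference 1.35 (reversed), -3.86 and -7.44 points, and the downstream reach 386, 597.5 and 767 bases. At 1200 bases, whole genes rose to 10.4%, domains outside genes to 20.8%, and whole histone genes fell to 0.

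With q-values under 0.05 the GC difference was -3.45 points. A start window of 0 bases gave 56.6% over a start, 0% by midpoint and 17.5% inside a gene, and one of 500 bases 54.4% by midpoint. Canonical starts gave 55.9% over a start, 19.7% by midpoint and a reach of 604.5 bases. Counting protein-coding and lncRNA genes alone left 1.88% with a whole gene. Asking for 90% of the gene gave 2.81% with a protein-coding gene and 6 histone genes, and 50% gave 14.1% with any gene, 7.19% with a protein-coding gene and 10 histone genes. By canonical transcript 3 histone genes were whole. Joining peaks under 1000 bases apart gave 563 wide domains and 8 whole histone genes.

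Leaving out each replicate in turn was not run, since the file holds only the pooled replicates. No paired analysis was possible because there is 1 group and no value per replicate. Depth and input are unknown, and their part in the widths and scores was not tested.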
